A study of Mus musculus with 8 samples.

Results

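Immune receptor and cytokine gene promoters were examined in germline stem (GS) cells, cultures grown from mouse testis that can found spermatogenesis when transplanted. Members were the autosomal genes of the promoter table whose symbols start as those of interleukins, chemokines, interferons, the TNF family, their receptors, Toll-like receptors (TLRs), interferon regulatory factors (IRFs), CD antigens or mouse MHC genes do, without *Cd81*. This rule took 75 of 9224 promoters and 949 of 203645 measured cytosines. It used symbols and no methylation value. By role the members were 14 ligands, 26 receptors, 2 TLRs, 6 IRFs, 13 CD antigens, 3 MHC genes and 4 *Tnfaip* genes. The other 7, such as *Irf2bp1* and *Cd2ap*, have symbols that start like that of an immune gene but fall in none of these roles. The plot of members labels the *Tnfaip* genes TNF-induced, by symbol alone, and these 7 Letters only.

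DNA was analysed by reduced representation bisulfite sequencing (RRBS), in which the enzyme MspI cuts the genome at CCGG and bisulfite turns unmethylated cytosines into uracil. The methylation level of a cytosine is the percentage of its reads that kept a C. There were 8 GS cell lines with 1 library each. The 4 Control-F1 lines (29, 37, 44 and 45) came from mice born by natural mating, with the treatment labelled as no, and the 4 ICSI-F1 lines (11, 17, 20 and 21) came from mice born after intracytoplasmic sperm injection (ICSI). All 8 lines were titled B6_F1 and had the WT genotype, and their stem cells had been enriched with an antibody to CD9 before culture. The labels do not tie the lines to mice, but the line numbers also stand for individual F1 mice in the supplement to the study, so each line probably came from its own mouse. The tests below measure the spread between lines. Lines 29, 37, 11 and 17 form library set 1 and the other 4 form library set 2, a division inferred from the read numbers and sample descriptions.

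Methylated CpGs at a gene start usually go with a silent gene, while CpG-rich starts stay unmethylated in most cells whether the gene is on or off. Chemokines and cytokines are secreted signals that recruit or instruct leukocytes, and their receptors sit on the receiving cells. TLRs sense microbial molecules, IRFs are transcription factors that act downstream of TLRs and interferons, and MHC class I proteins present peptides to T cells. Many of these genes are used in leukocytes and not in spermatogonia. *Cd9*, which encodes a membrane protein of spermatogonial stem cells, is an exception.

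The sequences below are the stretches on which the results turn, from GRCm38 (mm10) and written 5′ to 3′ on the strand of the gene, with measured CpGs in capitals. The first pair are the promoters with the largest differences between the groups among those with 3 or more cytosines. They lie at chr5:64960521-64960721 (minus strand, 424 to 624 bp upstream of the listed start) and chr8:94745284-94745511 (plus strand, 79 to 306 bp upstream).
Tlr6: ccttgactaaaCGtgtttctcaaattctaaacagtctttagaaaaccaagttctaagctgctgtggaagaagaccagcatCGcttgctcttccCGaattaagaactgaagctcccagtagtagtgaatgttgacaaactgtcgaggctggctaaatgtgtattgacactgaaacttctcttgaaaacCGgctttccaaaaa
Ccl22: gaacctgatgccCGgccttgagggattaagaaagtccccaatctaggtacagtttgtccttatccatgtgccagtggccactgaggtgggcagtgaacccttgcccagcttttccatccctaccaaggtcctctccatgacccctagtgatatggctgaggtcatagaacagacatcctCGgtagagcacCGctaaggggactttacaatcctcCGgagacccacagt
The next 4 hold the other cytosines past the 20% rule explained below, at chr4:63745163-63745213 (minus strand), chr1:171681977-171682008 (plus), chr8:82403223-82403251 (minus) and chr13:30748430-30748510 (plus). In each, the capitals at the cytosine in question stand inside CCGG, the MspI site.
Tnfsf15: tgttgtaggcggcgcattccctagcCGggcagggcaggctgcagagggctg
Cd48: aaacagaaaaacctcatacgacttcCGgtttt
Il15: cccaaggtccttttccgtttcctccCGgt
Irf4: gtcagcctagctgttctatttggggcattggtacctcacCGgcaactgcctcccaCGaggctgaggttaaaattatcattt
For contrast, the last 3 show a promoter methylated in all 8 lines and a pair with low levels. *Cd200r2* is at chr16:44866252-44866411 (plus), *Irf2* at chr8:46739420-46739579 (plus) and *Cd9* at chr6:125494880-125495039 (minus). The stretch of *Irf2* has 22 CpGs and that of *Cd200r2* has 6, over 160 bp each. They also differ in sequence masked as repeat in the reference, with 0% for *Irf2* and 75% for *Cd200r2*.
Cd200r2: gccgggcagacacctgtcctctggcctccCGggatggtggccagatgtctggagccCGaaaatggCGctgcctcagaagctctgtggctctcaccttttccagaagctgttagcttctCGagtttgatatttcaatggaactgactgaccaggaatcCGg
Irf2: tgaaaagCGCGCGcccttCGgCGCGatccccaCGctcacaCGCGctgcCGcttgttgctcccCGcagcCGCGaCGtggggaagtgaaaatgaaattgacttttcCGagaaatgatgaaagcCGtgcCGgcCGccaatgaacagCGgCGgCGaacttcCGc
Cd9: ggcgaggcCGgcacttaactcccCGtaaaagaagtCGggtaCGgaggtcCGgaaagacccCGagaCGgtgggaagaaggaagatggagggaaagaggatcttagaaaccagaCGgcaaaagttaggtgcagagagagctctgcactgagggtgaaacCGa
None of these stretches overlapped an annotated UTR in GENCODE M21. The cytosines of *Tlr6*, *Ccl22*, *Tnfsf15*, *Cd48* and *Il15* and the called cytosine of *Irf4* lay in no annotated gene. The *Cd9* cytosines lay in an intron of the overlapping RNA gene *Gm26728*, and 38 of the 58 *Irf2* cytosines lay in a noncoding exon of *Gm16675*. Over all members, 816 of 949 cytosines (86.0%) were in no annotated gene.

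The promoters of immune genes were more often methylated than those of the whole table. A promoter level is the unweighted mean over the measured cytosines of that promoter. Its mean over the members was 27.0% ± 2.11 for Control-F1 against 28.1% ± 2.12 for ICSI-F1 (SD, n = 4 each), beside 15.4% ± 1.78 and 15.7% ± 1.31 over all promoters. Averaged over the 8 lines, 42 members (56.0%) were under 10% and 13 (17.3%) were at 80% or more, against 73.7% and 8.15% of all promoters. The values of each member in each line are shown in the plot of members by role.

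**Figure D1:**
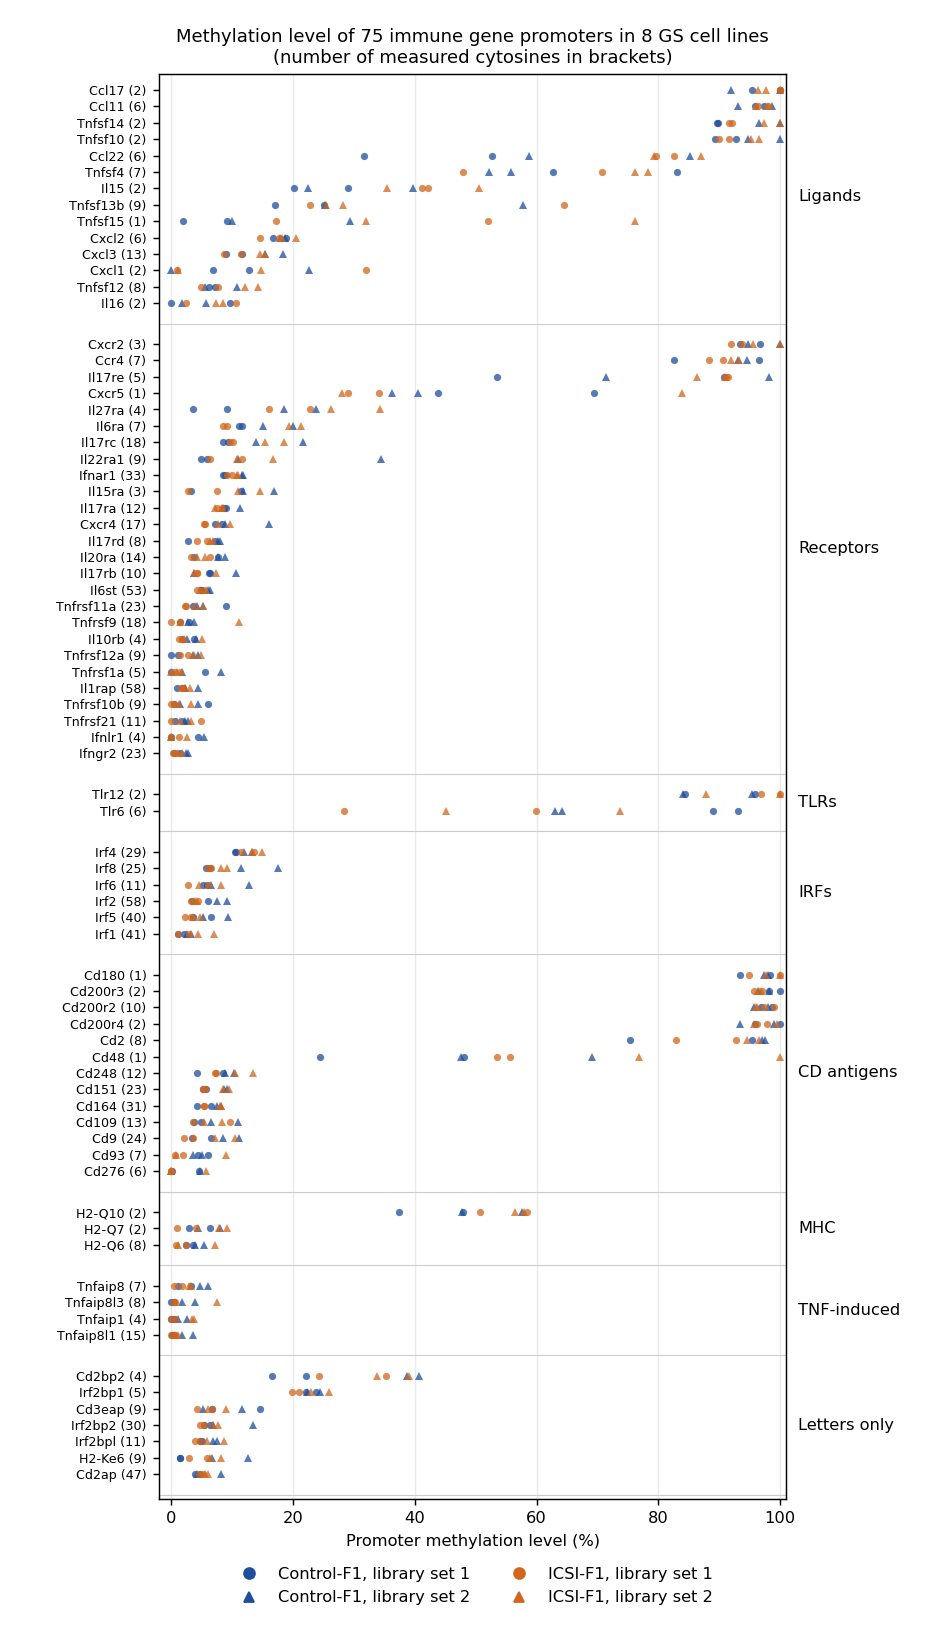
Methylation level (%, x axis) of the 75 immune gene promoters (rows, by role, with the number of measured cytosines) in 4 Control-F1 (blue) and 4 ICSI-F1 lines (orange), circles for library set 1 and triangles for library set 2. Most receptors and all IRFs lie under 20%, while ligands spread over the whole scale, and *Tlr6*, *Ccl22*, *Tnfsf4*, *Tnfsf13b* and *Cd48* differ widely between lines.

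Among the ligands, 4 of 14 promoters were at 80% or more and 2 were under 10%. Those of *Ccl11*, which attracts eosinophils, and *Ccl17*, which attracts T helper cells, had 8-line means of 96.7% and 97.7%. *Ccl11* was between 93.0% and 98.7% in every line, over 6 cytosines. *Tnfsf10* (TRAIL, a death ligand) had 93.8% and *Tnfsf14* (LIGHT) had 94.6%. The neutrophil chemokine genes *Cxcl1*, *Cxcl2* and *Cxcl3* had 11.4%, 17.9% and 13.03%. Without cytosines in CCGG, the recognition site of MspI, *Cxcl2* had 1.75% and *Cxcl3* had 4.43%, and *Cxcl1* had no other sites.

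The receptors were mostly low, with 17 of 26 under 10% and 5 between 10% and 20%. *Il1rap*, the shared subunit of the IL-1 receptor family, and *Il6st* (gp130, the shared subunit of the IL-6 family) had 58 and 53 cytosines, with 8-line means of 2.25% and 5.26%. *Ifngr2* and *Ifnar1*, subunits of the type II and type I interferon receptors, had 1.34% and 10.2%. Without CCGG sites *Ifnar1* had 1.87% and *Il6st* had 1.24%. The 3 receptors at 80% or more were *Il17re* (84.2%), *Ccr4* (91.4%, a receptor of T helper cells) and *Cxcr2* (95.7%, the receptor of neutrophil chemokines). *Ccr4* ranged from 82.6% to 96.5% over the lines.

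All 6 IRF promoters were under 15%, from *Irf1* at 3.03% to *Irf4* at 12.5%. *Irf2*, a repressor of interferon responses, had 5.23% over 58 cytosines. The CD antigens fell into a low and a high group, with 7 of 13 under 10% and 5 at 80% or more. The high ones were *Cd2* (91.5%), an adhesion receptor of T cells, *Cd180* (97.5%), a TLR-like receptor of B cells, and the paralogs *Cd200r2*, *Cd200r3* and *Cd200r4* (97.2%, 97.3% and 97.2%). Reads of such paralogs, and of *H2-Q6*, *H2-Q7* and *H2-Q10*, could have been assigned to a near-identical copy. *Cd9* was low in every line, with 3.41%, 6.50%, 8.46% and 11.1% in Control-F1 lines against 2.11%, 3.60%, 10.4% and 7.19% in those of ICSI-F1. The 4 *Tnfaip* genes were between 1.03% and 2.96%.

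The labelled cell type was checked with germ cell promoters, which are methylated in many somatic cells, and with imprinted genes that are methylated on the paternal copy. The 9 germ cell promoters with sites, of 15 listed, had 6.32% ± 0.874 in Control-F1 against 5.64% ± 2.32 in ICSI-F1 (SD, n = 4 each), and their 8-line means ran from 2.45% to 9.09%. The 3 imprinted promoters had 21.6% ± 5.25 and 20.7% ± 2.62 (SD, n = 4 each), with 8-line means of 40.2% for *H19*, 19.1% for *Meg3* and 4.19% for *Rasgrf1*. Whether these upstream cytosines lie in the imprinting control regions was not tested, so this list does not settle the imprint of the lines. The study itself reported paternal-type (androgenetic) methylation of imprinted regions in GS cells of both groups, by another bisulfite assay. Leukocyte marker promoters can show only that they are methylated, not which cells were present.

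The level of a member went with its CpG content. The 1 kb upstream of the listed start held a median of 33 CpGs in the 42 members under 10%, 22.5 in the 20 between 10% and 80%, and 10 in the 13 at 80% or more. Over all promoters these medians were 36, 24 and 13. Across the 75 members, level and number of CpGs had a Spearman correlation of −0.54, which describes genes and not replicates. Members held fewer CpGs than the table as a whole, with a median of 23 against 31 per kb. Of the member cytosines, 54.4% were in CpG islands and 30.1% were outside islands, shores and shelves, against 76.7% and 11.8% of all sites. Member sites in islands had a mean level of 4.93%, as had all island sites, and those outside islands, shores and shelves had 29.7%, against 20.7% for all.

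Levels also depended on whether a cytosine was in CCGG. All 949 member positions were CpGs in the reference, and 206 of them (21.7%, against 17.1% of all sites) were in CCGG. The mean level was 31.8% at these and 7.58% at the other 743. Over the whole table the values were 26.5% and 3.69%. Of 593 member CpGs, 356 were measured on both strands. Outside CCGG, the strands of 302 CpGs differed by at most 19.1 percentage points, with a median of 1.19. In CCGG, 17 of 54 CpGs (31.5%) differed by more than 50 points, as did 27.4% of such CpGs in all promoters. The CpG of *Irf2bp1* with the widest difference of this sign had 98.1% on the plus strand and 6.06% on the minus strand. That of *Cxcl2* had 3.72% and 96.5%. Over the table, all 2985 CpGs with strands more than 50 points apart were in CCGG. The cause was not tested. Promoter levels in the text include CCGG sites unless stated otherwise.

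**Figure D2:**
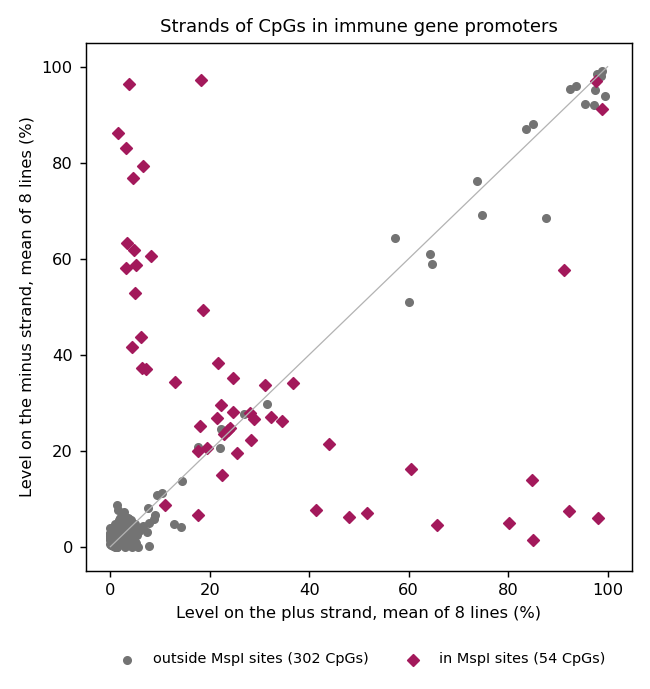
Methylation level on the plus strand (x axis, %) against the minus strand (y axis, %), each the mean of 8 lines, for the 356 CpGs of immune gene promoters measured on both strands. The 302 CpGs outside MspI sites (grey) follow the diagonal, while 17 of the 54 in MspI sites (purple diamonds) have strands more than 50 percentage points apart.

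When CCGG sites were left out, 63 members still had sites, of which 48 (76.2%) were under 10% and 9 (14.3%) at 80% or more. The same 63 had 40 under 10% and 9 at 80% or more with all sites. Over all promoters the shares without CCGG sites were 89.2% and 5.92%. The 12 without other sites were *Cxcl1*, *Il16*, *Ccl17*, *Tnfsf15*, *Il15*, *Cxcr5*, *Cd48*, *Cd180*, *Cd200r3*, *Cd200r4*, *H2-Q7* and *H2-Q10*. The level of *Irf4* was 1.45% without them, that of *Irf5* 2.70% and that of *Cd2bp2* 19.1%, and those of *Ccl22* and *Tlr6* were 66.8% and 64.8%.

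Whether ICSI-F1 lines differed from Control-F1 lines over the members as a whole was considered first. The member means per line were 25.6%, 25.0%, 29.6% and 27.9% in lines 29, 37, 44 and 45 (Control-F1) against 25.7%, 27.0%, 29.7% and 30.1% in lines 11, 17, 20 and 21 (ICSI-F1). Lines of library set 2 were above those of set 1, with 29.3% against 25.8%, and 65 of 75 members (86.7%) had a higher mean in set 2, as had 89.8% of all promoters. The ICSI-F1 mean exceeded the control mean by 1.13 percentage points, less than the SD of either group, and by 1.07 within set 1 and 1.19 within set 2. With each cytosine counted once the difference was −0.346. The promoter mean was higher in ICSI-F1 lines for 36 members and lower for 39, and the median difference was −0.190 points, beside −0.161 over all promoters. The groups differed by 5 points or less at 66 members (88.0%, against 93.1% of all promoters) and by more than 10 points at 7 (9.33%, against 2.92%).

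Those 7 were *Ccl22*, *Tnfsf15*, *Cd48*, *Il15*, *Il17re* and *Il27ra*, higher in ICSI-F1 lines, and *Tlr6*, lower. *Cd48* and *Tnfsf15* rest on 1 cytosine each and *Il15* on 2. The plot of differences against levels shows that most members near 0% or 100% differed little.

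**Figure D3:**
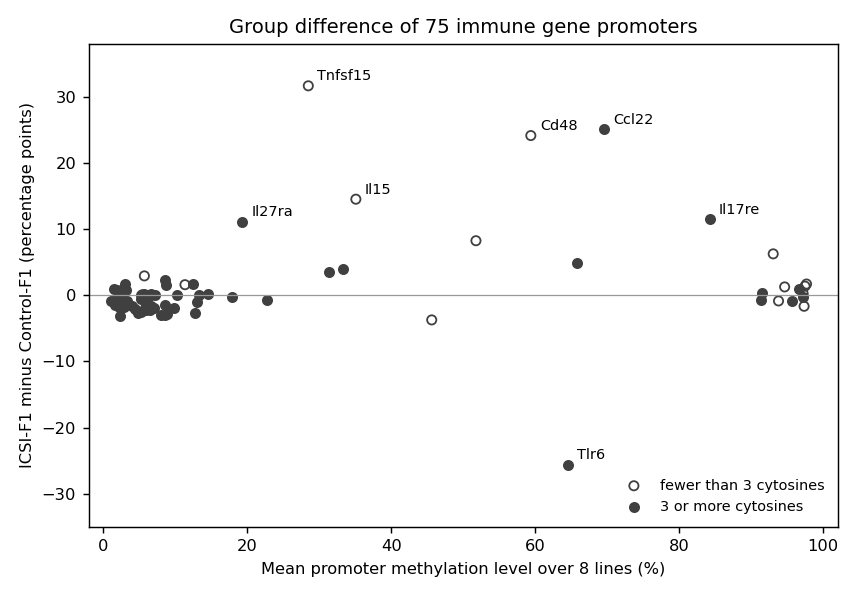
Difference of the promoter methylation level, ICSI-F1 minus Control-F1 (y axis, percentage points), against the mean level over 8 lines (x axis, %) for 75 immune gene promoters, filled where 3 or more cytosines were measured. *Tlr6* lies at −25.6 points and *Ccl22* at 25.1, and 66 members lie within 5 points of 0.

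No member passed a false discovery rate of 0.05. The promoter test (limma on log2 ratios of methylated to unmethylated reads) called 0 of 75 members and 0% of all 9224 promoters. At an unadjusted p under 0.05 it gave 5 members, 3 higher (*Tnfsf15*, *Ccl22*, *Il27ra*) and 2 lower (*Tlr6*, *Il17ra*), beside 3.23% of all promoters. A quasi-binomial logistic model of the same reads called 0 members, with 7 at an unadjusted p under 0.05, beside 2.93% of all promoters. The site test (quasi-binomial with moderated dispersion) called 0 of 926 member sites that varied and 0% of all. It gave 105 member sites, 31 higher and 74 lower, at an unadjusted p under 0.05, beside 7.06% of all sites. Over all sites the split was 5108 higher and 8793 lower, so the lean to lower was not particular to members. This lean was absent without Control-F1 line 44, with 61 higher and 53 lower member sites and 7565 and 6513 over all. Without ICSI-F1 line 11 it was absent over all sites (7350 and 5331) but not in members (35 and 50). In every other fit with 1 line left out, both leaned to lower. Limma on the site ratios gave 0 calls and 71 member sites at an unadjusted p under 0.05, beside 3.47% of all sites. Without Control-F1 line 44 the site test called 2 member sites, 1 of *Tlr6* (lower) and 1 of *Ccl22* (higher), both with an adjusted p of 0.0156, beside 0.0311% of all sites called higher and 0.00518% called lower. The site test made calls somewhere in the table in 6 of the 8 fits with 1 line left out, and in members in 1 of them.

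By the 20% rule, a cytosine is hypermethylated when its mean is over 20 points higher in ICSI-F1 than in Control-F1 lines and no single ICSI-F1 line falls below the control mean. Hypomethylated sites are defined the other way round. The study also used a 20% limit and left out sites with a reversed change in any sample. Its text does not say how a reversal was judged, so counts here need not match those of the study. The shares of covered sites that the study reported were smaller in both directions than those taken here. The last section gives the counts for a stricter reading, in which the groups also had to be separate. The rule took 8 hypermethylated member sites, in *Ccl22* (4), *Cd48*, *Il15*, *Irf4* and *Tnfsf15*, beside 0.274% of all sites. It took 3 hypomethylated member sites, all in *Tlr6*, beside 0.0506% of all sites. All 11 lay outside islands, shores and shelves, and 6 of them were in CCGG. Neither trait was particular to members. Over the whole table, 344 hypermethylated sites lay outside these classes, against 70 in islands, 128 in shores and 15 in shelves. For hypomethylated sites these numbers were 71, 15, 15 and 2. In CCGG, 0.822% of all sites were hypermethylated and 0.118% hypomethylated, against 0.161% and 0.0367% outside CCGG. Without Control-F1 line 37 the rule took 4 higher and 2 lower member sites, beside 0.200% and 0.0923% of all sites. Without Control-F1 line 44 it took 17 and 3, beside 0.545% and 0.0579%. The values of the 11 are shown line by line in the plot of called cytosines.

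**Figure D4:**
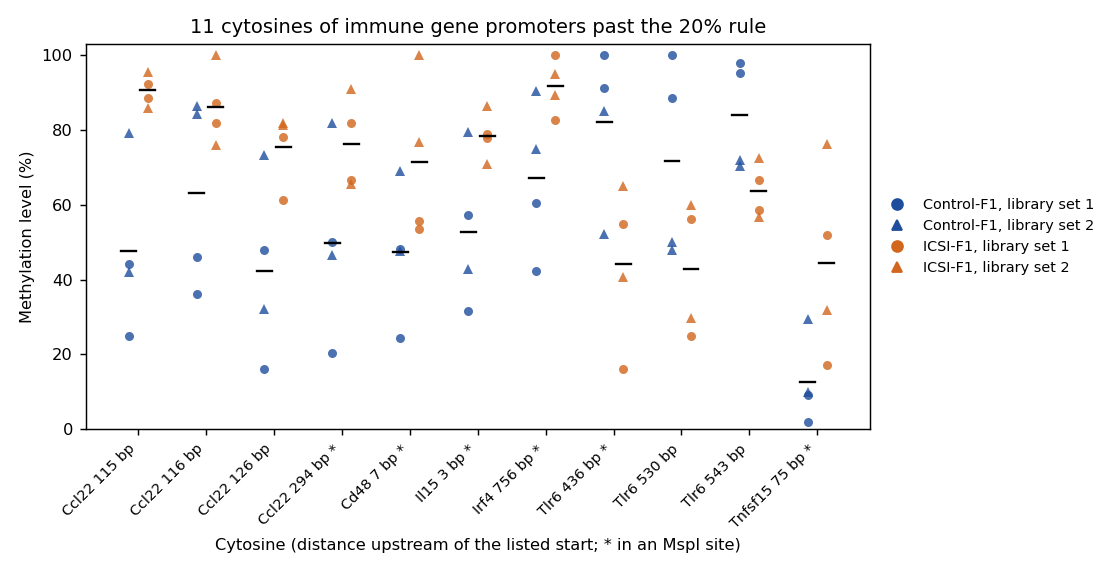
Methylation level (y axis, %) of the 11 cytosines of immune gene promoters past the 20% rule in 4 Control-F1 (blue) and 4 ICSI-F1 lines (orange), circles for library set 1, triangles for set 2 and black bars for group means. The groups overlap at 10 of the 11, and the cytosine of *Ccl22* 115 bp upstream is the exception.

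*Tlr6* (ENSMUSG00000051498), which pairs with TLR2 to sense bacterial lipopeptides, had 6 cytosines in 4 CpGs from chr5:64960533-64960709, 436 to 612 bp upstream of its listed start. They had 16 to 202 scaled reads per line. The promoter level was 93.1%, 89.0%, 63.1% and 64.1% in Control-F1 lines 29, 37, 44 and 45, and 28.3%, 59.8%, 73.6% and 45.2% in ICSI-F1 lines 11, 17, 20 and 21. Control-F1 lines of set 1 were the highest and ICSI-F1 line 11 the lowest, and the groups overlapped through ICSI-F1 line 20. The means were 77.3% ± 15.9 and 51.7% ± 19.5 (SD, n = 4 each), a difference of −25.6 points (two-sided exact permutation test, p = 0.114, adjusted 1). In limma the unadjusted p was 0.0178 and the adjusted p 0.999. The difference was −47.0 within library set 1 and −4.21 within set 2, where both groups were at intermediate levels.

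All 6 *Tlr6* cytosines had lower ICSI-F1 means, by 12.4 to 37.9 points. At position 64960533, in CCGG, the levels were 91.2%, 100%, 52.2% and 85.2% in Control-F1 lines against 16%, 55.0%, 65.0% and 40.7% in those of ICSI-F1. At 64960641, on the minus strand, they were 94.9%, 100%, 92.0% and 80.6% against 35.3%, 60.6%, 100% and 46.7%. This cytosine did not pass the 20% rule because ICSI-F1 line 20 was above the Control-F1 mean, although its difference was −31.2 points. The neighbour on the plus strand of the same CpG, at 64960640, had 95.3%, 98.0%, 70.5% and 72.1% against 58.7%, 66.7%, 56.8% and 72.5%. ICSI-F1 line 20 thus had 56.8% on one strand of this CpG and 100% on the other. The lowest adjusted p of the site test among the 6 was 0.233. Without the CCGG site the promoter difference was −23.1.

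**Figure D5:**
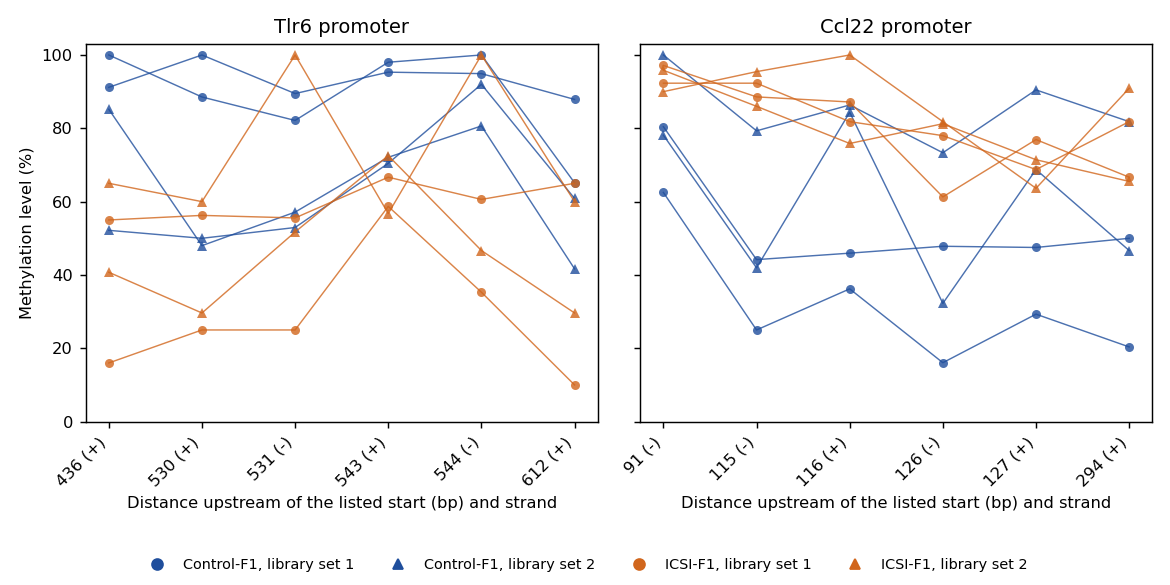
Methylation level (y axis, %) of the 6 measured cytosines of the *Tlr6* and *Ccl22* promoters by distance upstream of the listed start (bp) and strand (x axis), with a line for each of 4 Control-F1 (blue) and 4 ICSI-F1 GS cell lines (orange), circles for library set 1 and triangles for set 2. The set 1 lines part in opposite directions, with Control-F1 lines 29 and 37 highest at *Tlr6* (93.1% and 89.0%) and lowest at *Ccl22* (52.6% and 31.6%).

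*Ccl22* (ENSMUSG00000031779), a chemokine of dendritic cells and macrophages that binds CCR4, had 6 cytosines in 4 CpGs from chr8:94745296-94745499, 91 to 294 bp upstream. Coverage was 11 to 58 scaled reads per line. The promoter level was 52.6%, 31.6%, 85.2% and 58.7% in the Control-F1 lines against 82.5%, 79.6%, 79.3% and 86.97% in the ICSI-F1 lines. The ICSI-F1 lines lay close together, and Control-F1 line 44 was among them. The means were 57.0% ± 22.1 and 82.1% ± 3.55 (SD, n = 4 each), a difference of 25.1 points (two-sided exact permutation test, p = 0.114, adjusted 1), with an adjusted p of 0.999 in limma. The difference was 39.0 within set 1 and 11.2 within set 2, and 16.6 without Control-F1 line 37.

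At position 94745475 of the *Ccl22* promoter, 115 bp upstream on the minus strand and outside CCGG, the levels were 44.2%, 25.0%, 79.3% and 41.9% in Control-F1 lines against 92.3%, 88.6%, 86.0% and 95.5% in those of ICSI-F1. No ICSI-F1 line overlapped a Control-F1 line there. The difference was 43.0 points (site test, adjusted p = 0.233), 55.8 within set 1 and 30.1 within set 2. Of all member sites, 6 had non-overlapping lines with ICSI-F1 higher (0.427% of all sites had), and 17 with ICSI-F1 lower (0.679%). The CpG 11 bp farther upstream had differences of 33.2 and 11.2 points on its strands. *Ccr4*, the receptor gene, differed by −0.652 points.

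The other ligands past the 20% rule rest on CCGG sites. *Tnfsf15* (ENSMUSG00000050395), which encodes the T cell costimulator TL1A, had 1 cytosine, at chr4:63745188, 75 bp upstream, with at least 21 scaled reads in every line. Its levels were 9.21%, 1.98%, 10.0% and 29.4% in Control-F1 lines against 17.1%, 52.1%, 31.9% and 76.2% in those of ICSI-F1. Only ICSI-F1 line 11 was within the Control-F1 range. The means were 12.7% ± 11.7 and 44.3% ± 25.6 (SD, n = 4 each; two-sided exact permutation test, p = 0.0571, adjusted 1), and the difference was 29.004 points within set 1, 34.3 within set 2 and 21.1 without ICSI-F1 line 21. The adjusted p was 0.999 in limma.

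*Il15* (ENSMUSG00000031712), a cytokine that maintains NK and memory T cells, had both strands of 1 CpG, 3 and 4 bp upstream of its listed start. Coverage was 19 to 107 scaled reads per line. On the plus strand, at chr8:82403225, the levels were 57.1%, 31.7%, 42.9% and 79.4% in Control-F1 lines against 77.8%, 78.9%, 86.4% and 71.0% in those of ICSI-F1. On the minus strand the means were 2.87% ± 3.85 and 6.21% ± 6.21 (SD, n = 4 each). The strands of this CCGG site were thus 61.1 points apart over the 8 lines, and the difference of 14.5 points in the promoter mean comes mainly from the plus strand. *Tnfsf13b* (BAFF, a survival factor of B cells) had 17.03%, 25.1%, 57.8% and 25.2% in Control-F1 lines against 64.5%, 22.8%, 28.3% and 25.4% in those of ICSI-F1. Control-F1 line 44 and ICSI-F1 line 11 stood apart, and the difference of 3.94 points was 22.6 within set 1 and −14.7 within set 2. *Tnfsf4* (OX40 ligand) had 62.7%, 83.1%, 52.2% and 55.9% against 47.9%, 70.8%, 78.3% and 76.2%, with −13.5 points in set 1 and 23.2 in set 2, and the difference of 4.82 over all lines was 1.28 without CCGG sites. Neither gene had a direction shared by the library sets.

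Of the receptors, 7 of 26 had a higher and 19 a lower ICSI-F1 mean, with a median difference of −0.719 points. Over all 9224 promoters, 4109 were higher and 5106 lower, with a median of −0.161. *Il27ra* (ENSMUSG00000005465), a receptor subunit for IL-27, had 4 cytosines 185 to 337 bp upstream at chr8:84042774-84042926. Its level was 3.50%, 9.12%, 23.8% and 18.5% in Control-F1 lines against 16.1%, 22.8%, 34.3% and 26.2% in those of ICSI-F1. Both groups were higher in set 2, and the difference of 11.2 points was 13.2 within set 1 and 9.15 within set 2 (two-sided exact permutation test over all lines, p = 0.143, adjusted 1). With library sets apart, each ICSI-F1 line was above the Control-F1 lines of its set. How often this holds over all promoters was not counted, and *Il27ra* was named for its large difference. *Il17re*, a subunit of the IL-17C receptor, had 90.8%, 53.6%, 98.2% and 71.3% against 91.5%, 91.1%, 86.3% and 90.9%. Its difference of 11.5 points was 3.20 without Control-F1 line 37.

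*Il17ra*, the shared subunit of IL-17 receptors, was the 1 member promoter whose lines did not overlap. It had 8.64%, 8.94%, 8.57% and 11.3% in Control-F1 lines against 7.52%, 8.30%, 7.12% and 8.31% in those of ICSI-F1 (two-sided exact permutation test, p = 0.0286, the smallest that 4 lines against 4 allow, adjusted 1). The difference was −1.54 points, and non-overlapping lower promoters made up 0.791% of the table, higher ones 0.672% and 0 members. One of its CpGs is in CCGG and had 4.47% on the plus and 76.8% on the minus strand. Without this CpG the *Il17ra* means were 3.67% and 0.676%, a difference of −3.00 points. *Cxcr5*, which guides B cells to follicles, had 1 cytosine, in CCGG, with 69.4%, 43.8%, 40.5% and 36.2% against 34.0%, 29%, 28.1% and 83.9%. ICSI-F1 line 21 was the highest and the other ICSI-F1 lines the lowest. *Il22ra1*, the IL-22 receptor of epithelia, had 34.4% in Control-F1 line 44 and 4.82% to 16.7% in the other 7 lines. *Tnfrsf1a*, a TNF receptor, had 3.89% ± 3.71 and 0.748% ± 0.60 (SD, n = 4 each).

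Of the 6 IRFs, 4 had a lower ICSI-F1 mean, beside 5106 of all 9224 promoters, and all 6 differed by less than 3 points. *Irf5*, an activator downstream of TLRs, had 3.64%, 6.45%, 9.30% and 5.21% in Control-F1 lines against 2.29%, 3.27%, 4.70% and 3.53% in those of ICSI-F1 (two-sided exact permutation test, p = 0.0571, adjusted 1). *Irf2* had 3.43%, 6.02%, 7.43% and 9.14% against 3.26%, 4.403%, 4.23% and 3.95%, with −0.895 points in set 1 and −4.20 in set 2. *Irf4*, which directs lymphocyte differentiation, had 29 cytosines with a promoter mean of 11.6% ± 1.29 and 13.3% ± 1.46 (SD, n = 4 each). Its called cytosine at chr13:30748470, 756 bp upstream on the minus strand and in CCGG, had 60.6%, 42.3%, 75% and 90.5% in Control-F1 lines against 82.6%, 100%, 89.4% and 94.9% in those of ICSI-F1. The plus strand of this CpG had an 8-line mean of 6.56%. A further CCGG cytosine of *Irf4*, 159 bp upstream, had 12.1%, 12.3%, 27.5% and 26.9% against 28.8%, 38.4%, 37.9% and 46.9%, with no overlap and a difference of 18.3 points. Its partner on the other strand had 32.6% and 20.7% as group means, in the opposite direction. Without CCGG sites the difference of the *Irf4* promoter was −0.0586 points.

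*Cd48*, a ligand of CD2 family receptors on lymphocytes, had 1 cytosine at chr1:171682002, 7 bp upstream of its listed start and in CCGG, with 27 to 45 scaled reads. Its levels were 48.1%, 24.4%, 47.6% and 69.0% in Control-F1 lines against 55.6%, 53.6%, 76.7% and 100% in those of ICSI-F1. The means were 47.3% ± 18.2 and 71.5% ± 21.7 (SD, n = 4 each; two-sided exact permutation test, p = 0.143, adjusted 1), and the difference was 14.6 points without ICSI-F1 line 21. *Cd2* was at 75.3% in Control-F1 line 37 and 82.9% in ICSI-F1 line 17, and at 92.8% to 97.5% in the other 6 lines. The other CD antigens differed by 1.66 points or less. Of the MHC genes, *H2-Q10* had 47.8%, 37.4%, 57.5% and 47.8% against 50.7%, 58.4%, 56.5% and 58.0%, over 2 cytosines that are both in CCGG, and *H2-Q6* and *H2-Q7* differed by less than 1 point. *Tlr12*, with 2 cytosines, had 89.9% ± 6.61 and 96.2% ± 5.74 (SD, n = 4 each). Of the genes outside the listed roles, *Cd2bp2*, a splicing factor, differed most, by 3.54 points (10.4 in set 1 and −3.30 in set 2).

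Other genes of these pathways were taken from lists of non-members. Of 24 interferon and JAK-STAT genes with sites (42 listed), 18 were under 10%, 10 had a higher and 14 a lower ICSI-F1 mean, and the median difference was −0.219 points. Of 21 TLR and NF-kB signalling genes (45 listed), 17 were under 10%, with 6 higher and 15 lower and a median of −0.457. Over all promoters 4109 were higher and 5106 lower. Of 4 antigen processing genes (24 listed), 3 were under 10%. Of 9 lymphocyte receptor and adhesion genes (45 listed), 2 were at 80% or more. None of the 58 passed a false discovery rate of 0.05 in limma. *Jak3*, a kinase downstream of cytokine receptors, had 1 cytosine, with 2.04% and 6.75% as group means. Its lines did not overlap, with 0% to 3.125% in Control-F1 against 4% to 13.6% in ICSI-F1. Non-overlapping higher promoters made up 0.672% of the table. *Stat5a* had 2 cytosines and differed by 11.3 points (49.5% ± 22.7 and 60.8% ± 9.98, SD, n = 4 each). The *Selplg* promoter, of a selectin ligand, held the 1 site of these lists past the 20% rule. It was higher in ICSI-F1, as were 0.274% of all sites by this rule.

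RefSeq promoter sequences, 250 bp before to 50 bp after the start in GRCm38, were found for 60 of the 75 members. The pattern GAAANNGAA, most of the core of the interferon-stimulated response element, stood on either strand in 7 of the 60 (11.7%). It stood in 6.38% of the 6908 table promoters with such a sequence and in 8.57% of all 27025 reference promoters. The 7 were *Cd200r3*, *Cd9*, *Il15ra*, *Il1rap*, *Irf2*, *Irf2bp2* and *Tlr6*. TTCNNNGAA, the STAT site, also stood in 7 (11.7%), namely *Ccl17*, *Ifnar1*, *Irf1*, *Irf2*, *Irf2bp1*, *Irf8* and *Tnfrsf1a*. It stood in 6.27% of the table promoters and 8.47% of the reference promoters. CCGG stood in 48 (80%), against 90.7% of the table promoters and 52.6% of the reference promoters.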

How the data were processed

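RRBS libraries of 8 GS cell lines were prepared with a kit based on MspI digestion and sequenced as paired ends. The authors trimmed reads with Trim Galore 0.5.0, aligned them to mm10 (GRCm38) with Bismark 0.20.0 and counted cytosines with methylKit, for which the submitters' processing notes name version 1.16.0. They scaled coverage between lines, dropped cytosines under 10 reads or of extreme coverage, kept strands apart and kept cytosines within 1000 bp upstream of an Ensembl start. The deposited values are scaled and rounded numbers of methylated and unmethylated reads, handled here as a score and not as raw read counts, although the tests had been planned for counts. Unscaled coverage was recovered from the steps in the values. Summed over the cytosines of the table it came to 9122191 to 16748251 per line, where a read counts once for each cytosine it covers. The member sites had a median of 42.1 to 75.8 unscaled reads per line. The reads carry no molecular identifiers, so depth limits only counting error.

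Levels are percentages of methylated reads. Groups came from the labels. Promoters were compared with limma 3.58.1 on log2 ratios of summed methylated to unmethylated reads (1 added to each) and with exact two-sided permutation tests over the 70 arrangements of the lines. Sites were compared with a quasi-binomial logistic model with moderated dispersion. All p-values were adjusted by Benjamini-Hochberg over the whole table. Scripts were tested on simulated data. The members, gene lists and tests were chosen with earlier results of these data known. Promoters described in full were *Tlr6*, those with a site past the 20% rule, those with 3 or more sites and the largest differences or spread, and fixed examples of high and low levels. The remaining genes named were taken from the members by role or chosen after their values were seen. Alternatives were other coverage minimums, strands summed, other models, library sets apart, each line left out and, added after seeing the data, CCGG sites left out. Sequences and features came from GRCm38.p6 (RefSeq) and GENCODE M21.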

Additional observations from a re-analysis of the deposited data

Results flagged for a closer look

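In 82 groups of 4 lines, a line was looked for whose gap to the nearest other line takes up most of the group's range. The groups came from the means over members and roles, the promoters described in full or as examples, and the cytosines past the 20% rule. Some genes therefore entered more than once. Chance flags about 1 in 20 groups, and 3 stood out. *Cd2* was at 75.3% in Control-F1 line 37, with the other Control-F1 lines between 95.4% and 97.5%. *Il17re* was at 86.3% in ICSI-F1 line 20, with the others between 90.9% and 91.5%. *Tnfsf13b* was at 64.5% in ICSI-F1 line 11, with the others between 22.8% and 28.3%.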

How the results depend on the processing

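The 20% rule took 11 member sites as defined. In each setting that moved this number, the shares of all sites taken as higher and lower are given beside it. It took 6 at 20 or more scaled reads (0.233% and 0.0436%), 1 at 30 or more (0.199% and 0.0358%) and 7 with strands summed (0.251% and 0.0578%). It took 32 in library set 1 alone (0.871% and 0.211%), 7 with a threshold of 25 points (0.147% and 0.0260%) and 1 when groups also had to be separate (0.0673% and 0.00884%). Without CCGG sites, an alternative chosen after seeing the data, it took 5 (0.161% and 0.0367%). With 1 line left out it took 6 (without Control-F1 line 37) to 20 (without Control-F1 line 44). The site test gave 0 to 2 calls with 1 line left out, and the promoter test gave 0 under every alternative run. The difference of the member mean was between 0.445 and 1.98 points with 1 line left out, −0.011 at 30 or more scaled reads and −0.346 with each site counted once, all within the spread between lines. Of the differences of named promoters, those of *Tnfsf4* (−13.5 in set 1), *Cd2bp2* (−3.30 in set 2), *Tnfsf13b* (−14.7 in set 2) and *Irf4* (−0.0586 without CCGG sites) changed sign, and with 1 line left out *Cd2bp2* ran from −0.769 to 7.24 and *Tnfsf13b* from −5.79 to 12.8. The causes were not tested. The level of *Il15* was 4.54% at 20 or more scaled reads, where its called plus-strand cytosine dropped out and only the minus strand was left. No paired analysis was possible because the line numbers of the groups are not shared. At 10 to 30 scaled reads a level has steps of several points, which limits single cytosines.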
